A study of Homo sapiens with 6 samples.

Results

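The 10 genes described here encode enzymes that build purine and pyrimidine nucleotides from small precursors. They are PPAT, GART, PFAS, PAICS, ATIC and IMPDH2 of the purine branch (6 genes) and CAD, DHODH, UMPS and CTPS1 of the pyrimidine branch (4 genes). They were chosen by name, through the Entrez identifier of each row, with earlier results of these data known. All 10 were present among the 23459 genes of the count table, and all 10 passed the low-count filter that left 12510 genes for testing. The libraries came from MCF10A cells labelled WT throughout, which are human breast epithelial cells of a non-tumour line, grown in medium with horse serum, insulin, hydrocortisone, cholera toxin and EGF. All cells, controls included, had been transfected with siRNA at 20 nM through Lipofectamine RNAiMAX. Controls received a non-targeting siRNA (siCtrl, 3 libraries) and the depleted cells received siRNA against YAP and TAZ (siYAP/TAZ, 3 libraries). YAP (gene YAP1) and TAZ (gene WWTR1) are transcriptional coactivators downstream of the Hippo pathway that act through TEAD factors, and the comparison asks how the enzymes' mRNA levels differ once both are depleted.

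De novo purine synthesis assembles the purine ring stepwise on phosphoribosyl pyrophosphate, drawing on glutamine, glycine, aspartate and folate-bound one-carbon units, and ends at inosine monophosphate, from which adenine and guanine nucleotides are made. De novo pyrimidine synthesis first closes a ring from glutamine, bicarbonate and aspartate, then attaches the ribose phosphate to give UMP, from which UTP and CTP are made. Dividing epithelial cells draw on both routes for RNA and DNA, and MYC is a known activator of many of these genes.

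Library totals lay between 3175149 and 4317286 counts, and the 10 enzymes together held 0.0529% to 0.0812% of them. A single enzyme had between 18 and 921 counts in a library, whereas a count of 0 would allow up to 3 counts, or 0.68 to 0.992 CPM (counts divided by the TMM-scaled library size and given per 1e6). The labels of 2 libraries contradict each other. The library described as siCtrl replicate 2 carries a title and genotype of siYAP/TAZ, whereas siYAP/TAZ replicate 2 is titled as a control. The titles also number 4 of the 6 libraries differently from the descriptions. The description, which is also the column name of the table, was followed for group and replicate number, so the replicate pairs and the block below rest on its numbers. YAP1 had 189, 204 and 210 CPM in control replicates 1, 2 and 3 and 116, 118 and 112 CPM after depletion, so both disputed libraries sat with the group of their description. WWTR1 did the same, with 109, 109 and 102 CPM against 70.5, 67.1 and 59.8 CPM. YAP1 fell by 0.80 and WWTR1 by 0.69 on the log2 scale (edgeR quasi-likelihood test, adjusted p = 0.0138 and 0.0311). Across all genes, siCtrl replicate 2 stood apart from the other controls: on the first principal component it lay at 7.15, beside siYAP/TAZ replicate 1 at 9.77, while the other controls lay at -42.6 and -34.9. On the second component these neighbours were far apart, with siCtrl replicate 2 lowest of all libraries at -37.8 and siYAP/TAZ replicate 1 highest at 23.2. The other controls lay there at 10.3 and -6.36. The enzymes are therefore given with and without that library. All 10 listed epithelial markers passed the filter, and their summed level was 2064 to 2452 CPM in the controls and 1761 to 1962 CPM after depletion. Of markers of other cell types, COL1A2, COL3A1 and LYZ had 0 counts in every library, while PDGFRA had 154 to 170 CPM in the controls and 155 to 183 CPM after depletion. The summed level was 158 to 173 against 158 to 184 CPM for 6 fibroblast markers, 5.74 to 12.03 against 4.08 to 8.92 CPM for 6 immune markers and 2.26 to 4.01 against 5.67 to 12.9 CPM for 4 endothelial markers. The part of these markers in the enzymes' values was not tested.

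None of the 10 enzymes passed the test in the comparison of all 6 libraries (edgeR quasi-likelihood test, adjusted p from 0.134 for GART to 0.926 for DHODH). Among all genes tested, 1.96% were called, 1.22% lower and 0.743% higher in siYAP/TAZ cells. At an unadjusted p under 0.05, 3 enzymes (GART, PAICS and CAD) were lower and 0 were higher, beside 9.27% of all genes lower and 8.4% higher. DESeq2 likewise called 0 enzymes, beside 328 genes lower and 250 higher of 13301 tested. At an unadjusted p under 0.05 it gave 3 enzymes lower, beside 1924 genes in either direction. The fitted difference was negative for 7 of the 10, and its median was -0.40 on the log2 scale, while the median over all genes tested was -0.00093. ATIC, IMPDH2 and DHODH had values of 0.17, 0.11 and 0.084. The fits above held the group alone, whereas in the next libraries with the same replicate number were taken as pairs. With the replicate number as a block in the fit, 1 enzyme, GART, was called lower, beside 5.44% of all genes. Without siCtrl replicate 2, 4 enzymes (PFAS, CAD, UMPS and CTPS1) were called lower, beside 6.22% of all genes, and the median of the 10 was -0.47. That library was set apart by its values in these same data. It was the lowest control for each of these 4 enzymes, so leaving it out raises their control means. With any other single library left out, 0 enzymes were called lower. In bulk RNA, fewer cells that express a gene and less of its RNA per cell cannot be told apart.

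**Figure D1:**
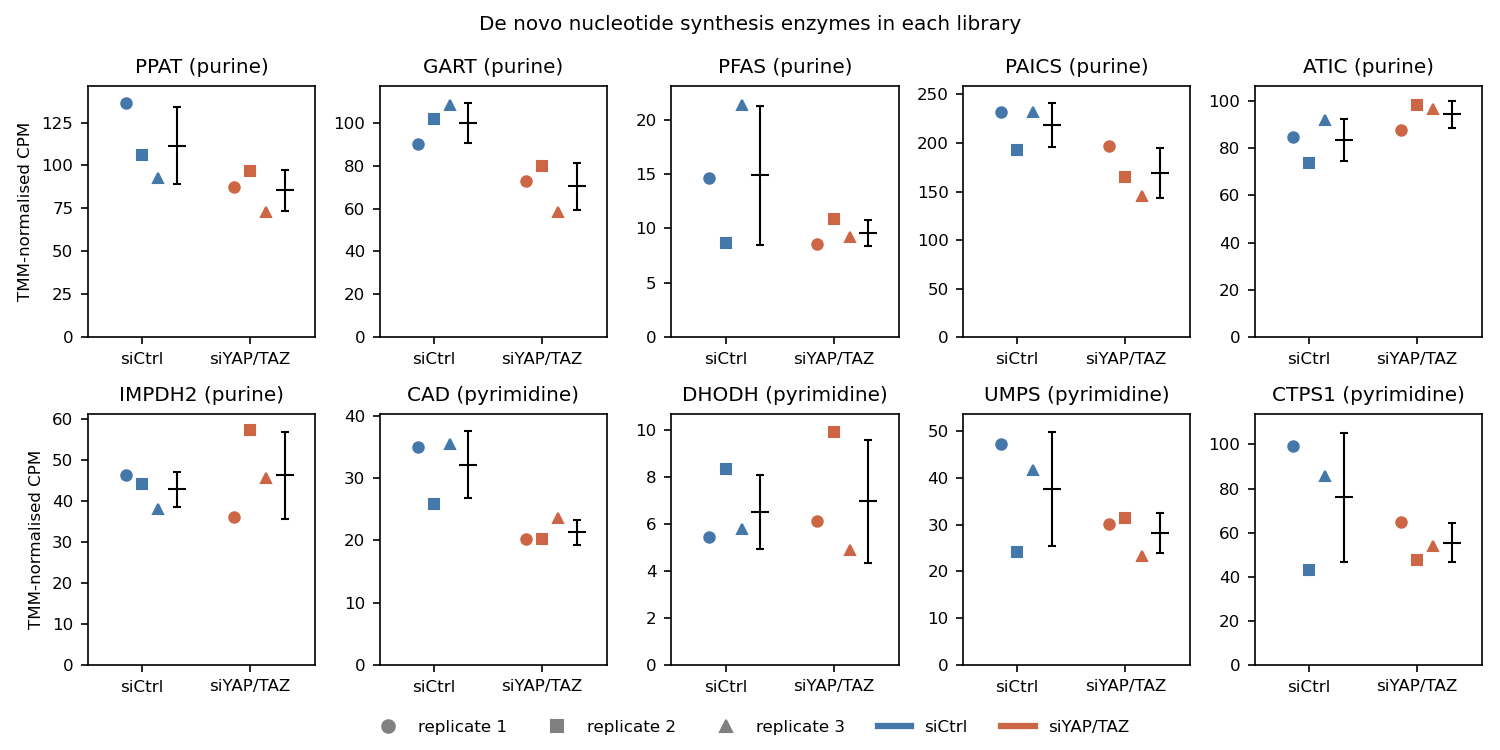
Level of each of the 10 enzymes in each library, in TMM-normalised CPM on a linear axis from 0, with siCtrl in blue, siYAP/TAZ in orange and marker shape giving the replicate number; the horizontal tick and bars give the mean ± SD of 3 libraries. GART and CAD are the enzymes whose groups do not overlap. The square of siCtrl replicate 2 lies among the siYAP/TAZ values for PFAS, PAICS, IMPDH2, DHODH and UMPS and below them for ATIC and CTPS1.

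PPAT (Entrez 5471; GRCh37 chr4:57259528-57301781, minus strand) transfers an amide nitrogen from glutamine to phosphoribosyl pyrophosphate, the committed step of purine synthesis. Its level was 136, 106 and 92.5 CPM in siCtrl replicates 1, 2 and 3 and 87.3, 96.5 and 72.6 CPM after depletion. The groups overlapped, since siYAP/TAZ replicate 2 lay above siCtrl replicate 3, although each siYAP/TAZ library was lower than the control of the same number. The means were 111 ± 22.4 and 85.5 ± 12.1 CPM (SD, n = 3 each), a log2 difference of -0.38 with a 95% interval of -0.78 to 0.011 (edgeR, adjusted p = 0.294, and 0.0964 with the block).

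PAICS (Entrez 10606; GRCh37 chr4:57301907-57330744, plus strand) is a bifunctional enzyme that carboxylates the imidazole intermediate and joins aspartate to it. In the GRCh37 annotation it lies 125 bases from PPAT and runs the other way, whereas in RefSeq the PAICS gene also has a start inside PPAT, so that both genes overlap and reads in the overlap may not be separable. PAICS had 232, 193 and 231 CPM in the controls and 197, 165 and 146 CPM after depletion. Of the depleted libraries, replicate 1 alone reached into the control range, just above siCtrl replicate 2. The log2 difference was -0.37 (95% interval -0.71 to -0.032), which as a level is 61.1% to 97.8% of the control (edgeR, adjusted p = 0.246, and 0.0828 with the block). Both PPAT and PAICS were lower in all 3 replicate pairs.

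GART (Entrez 2618; GRCh37 chr21:34876238-34915797, minus strand) carries several activities of the purine route on a single chain, including the transfer of a formyl group from folate. In the controls it had 89.9, 102 and 108 CPM, and in siYAP/TAZ cells 72.8, 80.0 and 58.2 CPM. Every siYAP/TAZ library was below every control. The means were 99.8 ± 9.20 and 70.3 ± 11.1 CPM (SD, n = 3 each), so 70.4% of the control level remained. Its log2 difference of -0.51 (95% interval -0.86 to -0.16) did not pass without the block (edgeR, adjusted p = 0.134) and passed with it at the same size, -0.51 (adjusted p = 0.0475). GART shares 454 bases with SON on the opposite strand, and whether the counting used strand is not given in the sources used here. SON itself had a log2 difference of -0.039 (adjusted p = 0.915).

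CAD (Entrez 790; GRCh37 chr2:27440237-27466811, plus strand) fuses the opening activities of the pyrimidine route, carbamoyl phosphate synthetase, aspartate transcarbamoylase and dihydroorotase. It was the other enzyme whose groups did not overlap, with 35.04, 25.9 and 35.4 CPM in the controls against 20.2, 20.2 and 23.7 CPM. In all, 2 of the 10 enzymes had every siYAP/TAZ library below every control, as did 11.1% of all genes tested, while 0 enzymes and 11% of all genes had every siYAP/TAZ library above every control. CAD had means of 32.1 ± 5.38 and 21.3 ± 2.02 CPM (SD, n = 3 each) and a log2 difference of -0.59, with a 95% interval of -1.02 to -0.17. The adjusted p from edgeR was 0.151 with all libraries, 0.0610 with the block and 0.0249 without siCtrl replicate 2, where the difference was -0.72.

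The upstream windows of these genes are shown because PPAT and PAICS lie head to head, GART and CAD were the enzymes with separated groups, and ATIC was the one that was higher in all 3 pairs. Each window runs from 250 bases before to 50 bases after the start of the gene in RefSeq (GRCh38.p14), and is written 5′ to 3′ on the strand of the gene. Capitals mark the E-box CACGTG, which MYC and its partners bind, or the TEAD motif GGAATG, searched on both strands along with the AP-1 motif TGANTCA. The windows lie at chr4:56435566-56435865 (PPAT, minus strand), chr2:215311809-215312108 (ATIC, plus strand), chr21:33542843-33543142 (GART, minus strand) and chr2:27217119-27217418 (CAD, plus strand).
PPAT: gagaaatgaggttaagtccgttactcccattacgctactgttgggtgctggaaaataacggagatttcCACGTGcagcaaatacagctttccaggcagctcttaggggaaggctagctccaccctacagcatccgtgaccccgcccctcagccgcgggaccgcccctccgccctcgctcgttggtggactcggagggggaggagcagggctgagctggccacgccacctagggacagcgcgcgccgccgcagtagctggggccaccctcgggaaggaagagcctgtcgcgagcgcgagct
ATIC: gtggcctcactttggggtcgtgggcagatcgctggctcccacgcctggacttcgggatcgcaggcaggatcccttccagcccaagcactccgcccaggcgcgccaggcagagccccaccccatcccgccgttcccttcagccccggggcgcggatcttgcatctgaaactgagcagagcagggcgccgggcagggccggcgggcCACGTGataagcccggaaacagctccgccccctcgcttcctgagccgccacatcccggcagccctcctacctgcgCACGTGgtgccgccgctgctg
GART: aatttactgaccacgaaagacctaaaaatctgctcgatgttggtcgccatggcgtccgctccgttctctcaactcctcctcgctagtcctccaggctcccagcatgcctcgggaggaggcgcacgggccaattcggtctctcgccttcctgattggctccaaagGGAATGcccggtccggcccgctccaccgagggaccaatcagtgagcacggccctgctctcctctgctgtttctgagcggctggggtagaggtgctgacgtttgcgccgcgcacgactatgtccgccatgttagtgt
CAD: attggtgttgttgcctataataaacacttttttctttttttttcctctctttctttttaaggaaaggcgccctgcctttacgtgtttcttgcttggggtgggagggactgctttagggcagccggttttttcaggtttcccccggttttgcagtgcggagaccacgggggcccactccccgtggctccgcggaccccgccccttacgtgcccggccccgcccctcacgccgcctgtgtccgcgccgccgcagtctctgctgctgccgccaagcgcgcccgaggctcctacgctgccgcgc

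The PPAT window holds 1 E-box, at base 69, and 236 of its bases are also in a PAICS window, which reads the same E-box from the other strand. The ATIC window holds 2, at bases 205 and 280, and the GART window has 1 TEAD motif, at base 165. No listed motif is in the CAD window. Windows were at hand for 9 of the 10 enzymes, 14 windows in all. An E-box was in 4 of these 14 windows, 1 window each for PPAT, PAICS, ATIC and DHODH, and 7.26% of the 35116 windows of all genes hold one. Counted by gene this is 4 of 9 enzymes, with the shared E-box of PPAT and PAICS counted for each, beside 8.78% of 27305 genes. The TEAD motif was in 3 of the 14 windows, 2 for GART and 1 for CTPS1, beside 14.0% of all windows. These 2 GART windows overlap and hold the same match. Counted by gene the TEAD motif was in 2 of 9 enzymes, beside 16.7% of all genes. The AP-1 motif was in 2 windows and 2 of 9 enzymes (PAICS and CTPS1; 7.71% of all windows and 9.37% of all genes). These are matches of letters in a window and not sites of binding. The enzymes with an E-box include both PPAT and PAICS, lower in every replicate pair, and ATIC, higher in every pair.

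PFAS (Entrez 5198; GRCh37 chr17:8150936-8173809, plus strand) adds a nitrogen from glutamine to the growing purine. Its 28 to 85 counts per library gave 14.6, 8.64 and 21.4 CPM in the controls and 8.61, 10.9 and 9.25 CPM after depletion. The controls spread widely and siCtrl replicate 2 lay as low as the depleted cells. The log2 difference was -0.65 (95% interval -1.39 to 0.087; edgeR, adjusted p = 0.340) and became -0.92 (adjusted p = 0.0473) without siCtrl replicate 2. PFAS shares 441 bases with CTC1 on the opposite strand, which had a log2 difference of 0.21 (adjusted p = 0.739).

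ATIC (Entrez 471; GRCh37 chr2:216176679-216214496, plus strand) performs the closing formylation and ring closure that yield inosine monophosphate. In RefSeq, though not in the GRCh37 annotation, it overlaps FN1, which encodes fibronectin. FN1 had 212, 114 and 402 counts in the controls and 614, 117 and 413 after depletion, where ATIC had 294, 239 and 365 against 387, 297 and 355. For ATIC the values ran the other way, with 84.4, 73.8 and 91.7 CPM in the controls and 87.7, 98.2 and 96.5 CPM in the depleted cells. Each siYAP/TAZ library was higher than the control of the same number, by little in replicates 1 and 3. The log2 difference of 0.17 had a 95% interval of -0.13 to 0.48 (edgeR, adjusted p = 0.546), and the value fitted for GART, -0.51, lies outside that interval.

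Because ATIC and the other purine enzymes were counted in the same libraries, their counts can be set against each other without any scaling between libraries. This ratio was chosen after the values were seen and is given as a description. GART had 1.06, 1.38 and 1.18 counts per ATIC count in the controls and 0.829, 0.815 and 0.603 in siYAP/TAZ cells. PAICS had 2.75, 2.61 and 2.52 against 2.24, 1.68 and 1.51, and PPAT 1.61, 1.44 and 1.01 against 0.995, 0.983 and 0.752. For CAD the ratios were 0.415, 0.351 and 0.386 against 0.230, 0.205 and 0.245. In each of these 4 enzymes the ratio was lower in every depleted library than in any control, siCtrl replicate 2 included. The same held for PFAS. In CPM, however, the groups of PPAT, PAICS and PFAS overlapped. The divisor, ATIC, was higher in each depleted library than in the control of the same number, which lowers every ratio there. ATIC was also lowest in siCtrl replicate 2, which raises the ratios of that control. The share of all genes separated per ATIC count was not computed. The ratios of IMPDH2, DHODH, UMPS and CTPS1 overlapped between groups. As a share of the counts of all 10 enzymes, every enzyme but ATIC overlapped between groups. ATIC itself made up 10.7%, 11.7% and 12.2% of the counts of the 10 enzymes in the controls and 14.4%, 15.9% and 18.1% after depletion.

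IMPDH2 (Entrez 3615; GRCh37 chr3:49061758-49066880, minus strand) oxidises inosine monophosphate and thereby commits it to guanine nucleotides. It had 46.2, 44.1 and 37.9 CPM in the controls and 36.0, 57.2 and 45.4 CPM in siYAP/TAZ cells, which overlapped fully. The log2 difference was 0.11 (95% interval -0.32 to 0.54; edgeR, adjusted p = 0.819) and its sign depended on siYAP/TAZ replicate 2, without which it was -0.068. The related enzyme IMPDH1, which catalyses the same reaction, had 26.1, 19.1 and 31.7 CPM against 20.6, 17.5 and 13.3 CPM, a log2 difference of -0.58 (adjusted p = 0.267). An annotated readthrough gene covers 5103 bases of IMPDH2 on the same strand, and its reads could not be separated here.

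Past CAD, the pyrimidine route continues with DHODH (Entrez 1723; GRCh37 chr16:72042487-72061563, plus strand), which oxidises dihydroorotate at the inner mitochondrial membrane. DHODH had the fewest counts of the 10, 18 to 30 per library, or 5.46, 8.33 and 5.78 CPM against 6.12, 9.92 and 4.90 CPM. In both groups replicate 2 was the highest. The log2 difference was 0.084 (edgeR, adjusted p = 0.926). Its 95% interval, -0.70 to 0.86, covers a difference of the size fitted for CAD in either direction, so one of that size is not excluded.

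UMPS (Entrez 7372; GRCh37 chr3:124449280-124468120, plus strand) converts orotate to UMP. CTPS1 (Entrez 1503; GRCh37 chr1:41444972-41478237, plus strand) aminates UTP to CTP with glutamine. UMPS had 47.4, 24.1 and 41.7 CPM in the controls and 30.1, 31.4 and 23.4 CPM after depletion. CTPS1 had 99.4, 43.2 and 85.7 CPM against 64.8, 47.6 and 53.9 CPM. In both genes siCtrl replicate 2 lay within or below the siYAP/TAZ values, while siCtrl replicates 1 and 3 lay above all of them. With all libraries the log2 differences were -0.42 (95% interval -0.98 to 0.15) for UMPS and -0.46 (-1.07 to 0.16) for CTPS1, with adjusted p of 0.423 and 0.421 from edgeR. Without siCtrl replicate 2 they were -0.65 and -0.73, with adjusted p of 0.0393 and 0.0166. CTPS2, the other CTP synthetase, had 23.3, 21.0 and 26.4 CPM against 21.8, 18.2 and 25.8 CPM, a log2 difference of -0.10 (adjusted p = 0.836).

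**Figure D2:**
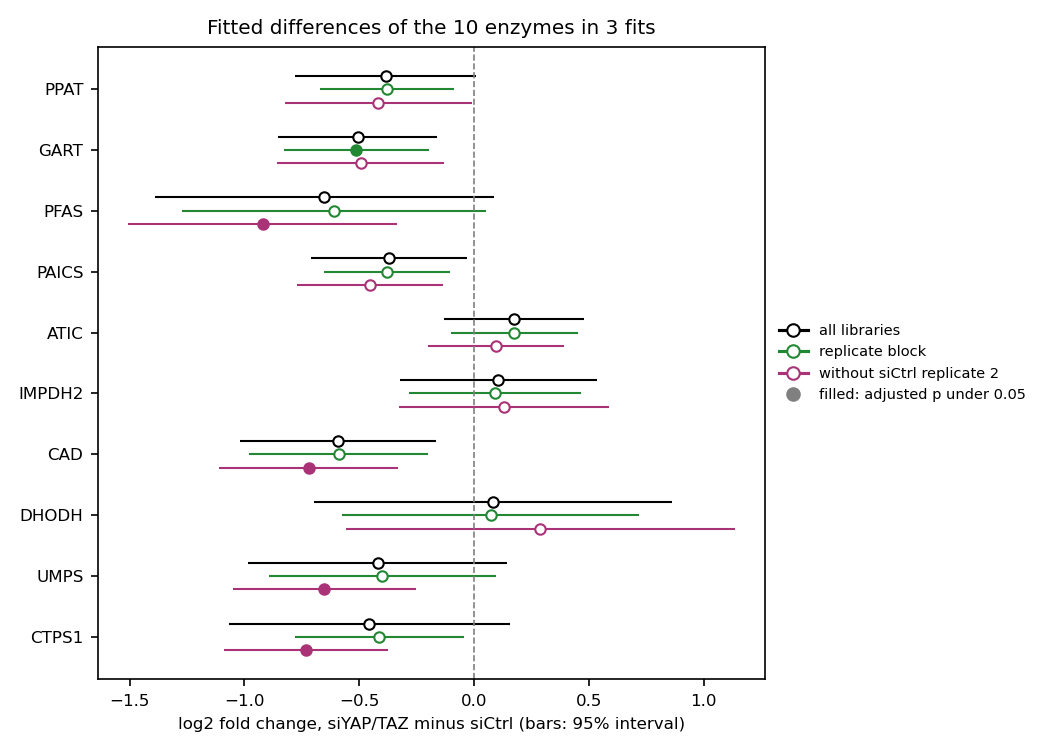
Fitted log2 fold change of each enzyme (siYAP/TAZ minus siCtrl, horizontal axis) with its 95% interval, in the fit of all libraries (black), with the replicate block (green) and without siCtrl replicate 2 (purple); filled points have an adjusted p under 0.05. GART is filled only with the block, PFAS, CAD, UMPS and CTPS1 only without siCtrl replicate 2, and the points of ATIC, IMPDH2 and DHODH lie above 0 in these 3 fits.

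Added over the 6 purine enzymes, the level was 604, 526 and 583 CPM in the controls and 489, 507 and 428 CPM in siYAP/TAZ cells. The 4 pyrimidine enzymes summed to 187, 102 and 169 CPM against 121, 109 and 106 CPM. The purine sums did not overlap between groups, whereas in the pyrimidine sums siCtrl replicate 2 was the lowest of all 6 libraries. Taken singly, GART alone of the purine enzymes was separate, and ATIC and IMPDH2 had positive differences. How often sums over other genes separate was not computed. For 6 of the 10 enzymes siCtrl replicate 2 was the lowest control. The same library also stood low among the controls in the summed level of 12 S phase and mitosis genes, with 1303 CPM beside 2046 and 1929 CPM, while the depleted cells had 1244, 751 and 909 CPM. Whether these cell cycle genes have a part in the enzymes' levels was not tested. Of the 12, TOP2A and CCNB1 fell with all libraries, by 0.85 and 0.89 on the log2 scale (edgeR, adjusted p = 0.0303 and 0.0315), all 12 had negative differences with a median of -0.84, 6 were called lower with the block and 12 without siCtrl replicate 2, but 0 when control replicate 1 or 3, or depleted replicate 2 or 3, was the library left out.

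**Figure D3:**
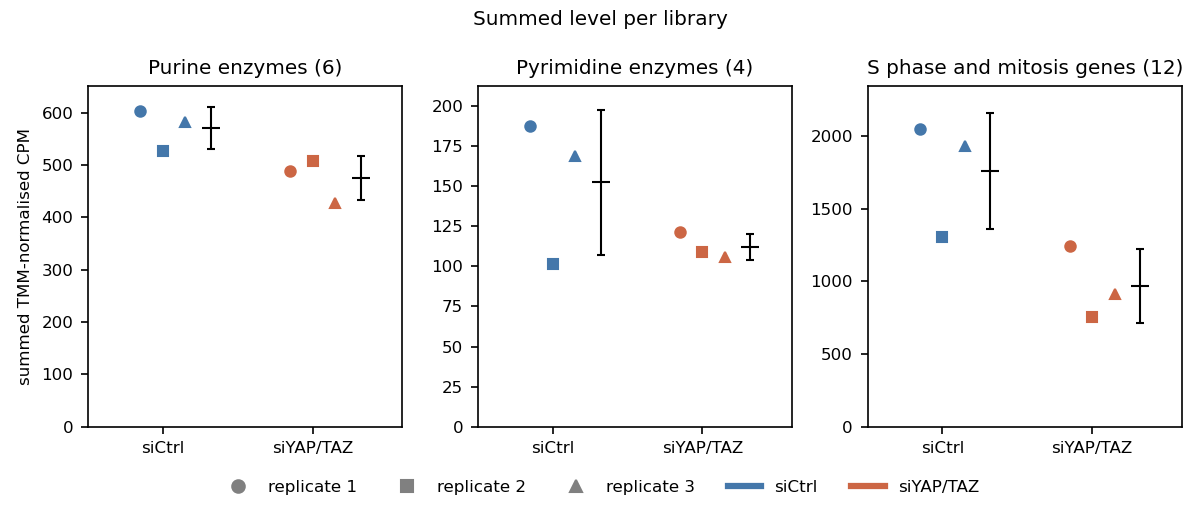
Summed TMM-normalised CPM in each library for the 6 purine enzymes, the 4 pyrimidine enzymes and 12 S phase and mitosis genes, on linear axes from 0, with marker shape for the replicate number and mean ± SD beside each group. In the purine panel all siYAP/TAZ points lie below the controls, and in the other panels siCtrl replicate 2 (square, 102 and 1303 CPM) lies well below the other controls.

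For the remaining steps of the de novo routes 9 of 10 listed genes were tested, 7 had a negative difference, and the median was -0.10 on the log2 scale. None passed with all libraries (edgeR; 3 lower and 0 higher at an unadjusted p under 0.05; DESeq2 called 0), and 2 were called lower with the block. PRPS2, which makes phosphoribosyl pyrophosphate, had 52.6, 61.7 and 55.0 CPM in the controls and 40.6, 37.7 and 35.1 CPM in siYAP/TAZ cells, so the groups were separate. Its log2 difference was -0.58 (adjusted p = 0.0797, and 0.0295 with the block). GMPS, which aminates xanthosine monophosphate to GMP, was also separate, with 106, 91.0 and 99.8 CPM against 83.9, 70.4 and 67.7 CPM. The log2 difference of GMPS was -0.42 (adjusted p = 0.166, and 0.04999 with the block, just inside the threshold).

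Genes that turn ribonucleotides into DNA precursors had the lowest median of the metabolic lists, -0.54 over 8 genes, of which 6 were negative. With all libraries edgeR called 0 of them (3 lower and 0 higher at an unadjusted p under 0.05) and DESeq2 called 1 lower, and 4 fell in the fit with the block. RRM1, the large subunit of ribonucleotide reductase, had 395, 273 and 383 CPM in the controls and 241, 172 and 201 CPM after depletion, a log2 difference of -0.78 (edgeR, adjusted p = 0.0681, and 0.0020 with the block). TYMS, which makes thymidylate, had 89.6, 47.2 and 69.6 CPM against 54.4, 40.3 and 45.1 CPM, a log2 difference of -0.56 (adjusted p = 0.250, and 0.0389 with the block). The other genes called with the block were RRM2, the small subunit, and DTYMK, thymidylate kinase. TYMS overlaps ENOSF1 in RefSeq, so reads in the overlap may not be separable.

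Among 15 salvage genes, which recycle bases and nucleosides, 12 had a negative difference and the median was -0.25. The edgeR test called 0 with all libraries (2 lower and 1 higher at an unadjusted p under 0.05), and DESeq2 called 0. TK2, the mitochondrial thymidine kinase, had a log2 difference of 0.80 (adjusted p = 0.121, and 0.0429 with the block), with 11.5, 13.6 and 12.6 CPM against 16.5, 22.5 and 26.7 CPM. With the block 4.66% of all genes were called higher. UCK2, which phosphorylates uridine and cytidine, had a difference of -0.41 (adjusted p = 0.175, and 0.0701 with the block). UPP1, uridine phosphorylase, was the salvage gene called lower with the block. The nucleotide kinases (8 tested, median 0.020) were evenly split in sign. Of these AK1, an adenylate kinase, had a difference of 0.77 (adjusted p = 0.150, and 0.0469 with the block) and GUK1, the guanylate kinase, -0.33 (adjusted p = 0.261, and 0.135 with the block).

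Breakdown genes (9 tested, median 0.079) included 2 called lower with the block and, by DESeq2, also 2 called lower with all libraries. NT5E, the cell surface enzyme that removes phosphate from AMP, had 74.1, 43.8 and 89.2 CPM in the controls and 31.7, 12.9 and 36.7 CPM in siYAP/TAZ cells. Every depleted library of NT5E was below every control, and the log2 difference was -1.33 (edgeR, adjusted p = 0.0936, and 0.0007 with the block). XDH, which oxidises hypoxanthine and xanthine, had a difference of -0.94 (adjusted p = 0.117, and 0.0457 with the block), with 52.8, 36.7 and 67.6 CPM against 21.5, 38.0 and 23.4 CPM.

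In folate one-carbon metabolism 10 of 13 tested genes were negative, with a median of -0.16, and 2 were called lower with the block. MTHFD2L and MTHFD2 are related mitochondrial enzymes that oxidise methylene-folate. MTHFD2L had 344, 302 and 358 CPM against 193, 242 and 167 CPM, a log2 difference of -0.74 (edgeR, adjusted p = 0.0529, and 0.0097 with the block). MTHFD2 had 246, 245 and 207 CPM against 147, 195 and 139 CPM, a difference of -0.54 (adjusted p = 0.121, and 0.0160 with the block), but overlaps SLC4A5 in RefSeq. In both genes all depleted libraries lay below all controls. The 5 tested genes of serine and glycine supply had a median of -0.17, with -0.24 for PSAT1 and -0.34 for PHGDH, both on the serine route (adjusted p = 0.539 and 0.609). In the pentose phosphate pathway, the source of ribose phosphate, the median of 7 genes was 0.21, with 0.47 for TKT (adjusted p = 0.345). Neither list had a gene called with the block.

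Glutamine and aspartate are substrates of both routes. In that list 6 of 8 genes were negative, with a median of -0.14, yet the 2 with the lowest p were positive. ASS1, which consumes aspartate to make argininosuccinate, had 25.6, 47.5 and 23.4 CPM in the controls and 62.8, 82.0 and 65.8 CPM after depletion, with no overlap and a log2 difference of 1.13 (edgeR, adjusted p = 0.0620, and 0.0018 with the block). GLUL, glutamine synthetase, had 34.2, 295 and 50.01 CPM against 192, 365 and 417 CPM. The control replicate 2 of GLUL lay with the depleted cells, and the log2 difference was 1.36 with all libraries (adjusted p = 0.334), 1.90 with the block (adjusted p = 0.0161) and 2.94 without siCtrl replicate 2 (adjusted p = 0.0009), where 6.08% of all genes were called higher.

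Among 8 tested regulators of growth and nucleotide synthesis the median was 0.086. MXD4 and MXI1, which pair with MAX in place of MYC and repress, were positive at 1.16 and 0.59 on the log2 scale (edgeR, adjusted p = 0.100 and 0.277) and were called higher with the block (adjusted p = 0.0039 and 0.0137). MXD4 had 10.6, 24.7 and 12.1 CPM in the controls and 28.6, 44.3 and 32.6 CPM in siYAP/TAZ cells, with no overlap. MYC, named here after its values were seen, had 254, 305 and 272 CPM against 228, 297 and 197 CPM, a log2 difference of -0.21 (adjusted p = 0.572).

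Over these companion lists, edgeR with its default filter, dispersion and TMM scaling called 0 genes with all libraries apart from the S phase and mitosis list. At an unadjusted p under 0.05 it gave 1 lower and 2 higher among the nucleotide kinases, 2 lower and 2 higher in breakdown, 3 lower in folate metabolism, 1 higher in glutamine and aspartate supply, 1 higher in the pentose phosphate pathway and 2 higher among the regulators. DESeq2 called 1 folate gene lower, and 1 gene of glutamine and aspartate supply and 1 regulator higher. Of all 13301 genes tested, DESeq2 called 328 lower and 250 higher. Without siCtrl replicate 2, edgeR called 5 genes of deoxynucleotide synthesis and 4 salvage genes lower, 2 breakdown genes lower and 1 higher, 1 nucleotide kinase and 1 folate gene in each direction, and 2 genes of glutamine and aspartate supply and 2 regulators higher, while it called 0 genes of the other de novo steps, of serine and glycine supply and of the pentose phosphate pathway.

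**Figure D4:**
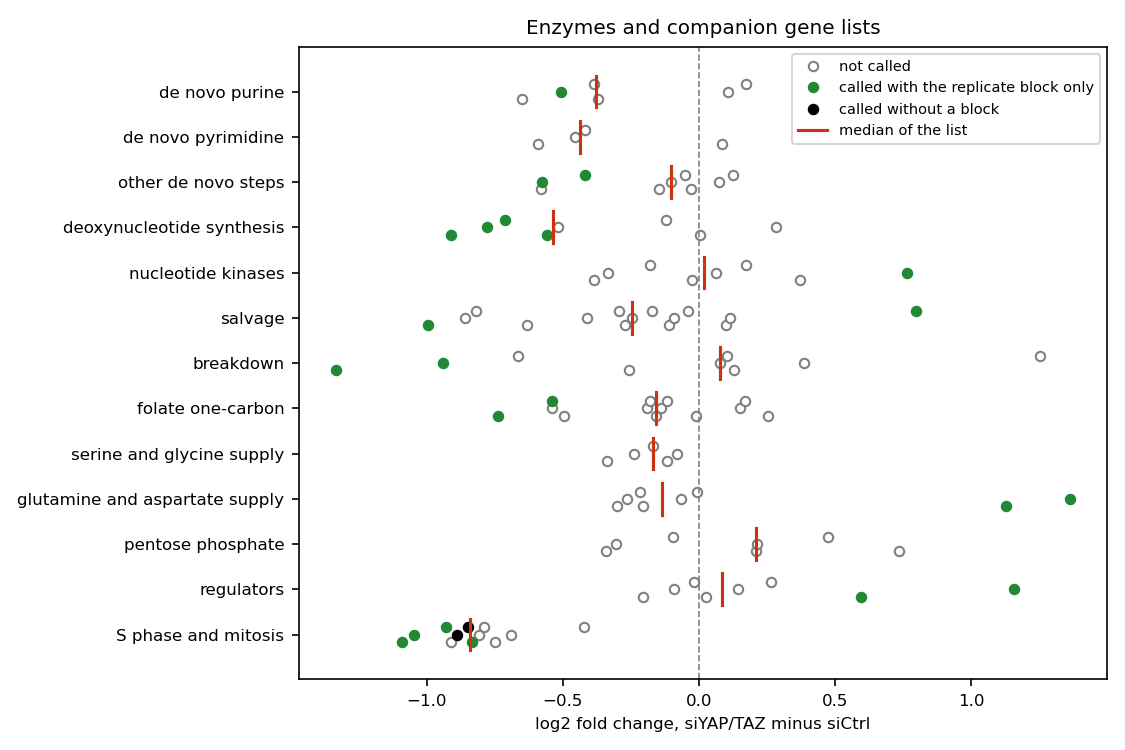
Log2 fold change (siYAP/TAZ minus siCtrl, horizontal axis) of every tested gene in each list, 1 point a gene, with the list's median as an orange bar; black points were called with all libraries, green only with the replicate block, open points in neither. The medians of the purine (-0.38) and pyrimidine (-0.44) enzymes lie between those of the other de novo steps (-0.10) and the S phase and mitosis genes (-0.84).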

How the data were processed

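The authors deposited raw counts of 6 libraries in a single table, with Entrez genes as rows, prepared with a 3′ mRNA kit (QuantSeq FWD), so counts were not scaled by transcript length. The submitters' processing notes name cutadapt 4.2, Bowtie2 2.3.5.1 and build hg19. For RNA-Seq in general, the methods of the study describe counting in R of reads that overlap genes, with biological replicates. The gene models and the use of strand in counting these libraries are not given in the sources used here. The labels do not say that the libraries came from separate cultures, so p-values measure the spread between these libraries, which may be technical.

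The 10 enzymes and the companion gene lists were chosen with earlier results of these data known. Named genes are the 10 enzymes, in each companion list those past the threshold or otherwise the 2 with the lowest p, close relatives (IMPDH1, CTPS2), annotated neighbours, and YAP1 and WWTR1. AK6 was not found in the table. Some genes of the lists are not reported here by name. Symbols come from RefSeq (GRCh38.p14; 23308 IDs with 99.7% of counts matched), coordinates from GENCODE lifted to GRCh37, the coordinates of hg19.

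Counts were fitted in edgeR 4.0.16 under R 4.3.3 (quasi-likelihood F test, two-sided) after its default low-count filter and TMM scaling. The model held the group alone, and p-values were adjusted by Benjamini-Hochberg over 12510 genes (99.5% of counts), at a threshold of 0.05. Standard errors and 95% intervals come from the fitted log2 fold change, its F statistic and total degrees of freedom. Alternatives covered the tool (DESeq2 1.42.0), the scaling (RLE, or library size with no factors), the filter (none, or 50 counts on average), robust dispersion estimates, the replicate number as a block, groups by title, both disputed libraries left out, and each library left out in turn. No pair of libraries held identical values (chi-square per degree of freedom within groups 5.37 to 17.4). The replicate numbers of the description field were checked for pairing. Deviations from the group means correlated across genes with r of 0.42, 0.35 and 0.13 for replicates 1, 2 and 3. Each was above 0.1, and same-numbered libraries were therefore treated as pairs in the block fit and in the replicate pairs, although genes are not independent. The main fit held the group alone and did not use the pairing. No correlation of differently numbered libraries is given to compare these with. Intervals and floors cover counting and library spread only, since the reads carry no molecular identifiers and need not be independent.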

Additional observations from a re-analysis of the deposited data

How the results depend on the processing

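The number of genes called was 245 with all libraries, 578 with DESeq2, 556 with no low-count filter, 1263 with the replicate block, 0 with groups by title (464 at an unadjusted p under 0.05) and 1183 without both libraries whose labels disagree. It ranged from 16 to 1579 when 1 library was left out, with 1579 without siCtrl replicate 2, 92 without siCtrl replicate 1, 16 without siCtrl replicate 3, and 71 and 18 without siYAP/TAZ replicates 2 and 3. The number of enzymes called lower was 0 with all libraries, 1 with the replicate block (GART) and 2 without both disputed libraries (UMPS and CTPS1). It was 4 without siCtrl replicate 2 and 0 when any other single library was left out. Under the other alternatives it was 0 as well, though DHODH and PFAS were untested at a mean of at least 50 counts. No enzyme was called higher under any alternative. The median of the enzymes was negative throughout and ranged from -0.48 to -0.22 when 1 library was left out, the latter without siCtrl replicate 1. The 7 enzymes with a negative difference kept that sign in every alternative that tested them. ATIC turned to -0.087 with groups by title. IMPDH2 turned to -0.17 with groups by title, to -0.045 without both disputed libraries and to -0.068 without siYAP/TAZ replicate 2. DHODH turned to -0.12, -0.020 and -0.23 in the same settings, and to -0.026 without siCtrl replicate 1. With 1 library left out, IMPDH2 ranged from -0.068 to 0.26 and DHODH from -0.23 to 0.29. The cause was not tested. The block changed the call of no other enzyme. For the companion lists, 1 folate gene was called lower with robust dispersion and with library size alone. With no low-count filter 1 deoxynucleotide, 2 breakdown and 1 folate gene were called lower, and 1 gene of glutamine and aspartate supply and 1 regulator higher. The S phase and mitosis count, 2 with all libraries, was 0 with groups by title. Counts were low for DHODH and PFAS, at 18 to 30 and 28 to 85 per library.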
